A study of Mus musculus with 6 samples.

Results

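The genes examined here encode 10 membrane proteins that move drugs, toxins, bile acids, hormones and other organic solutes across kidney tubule cells. They are the ABC efflux pumps *Abcb1a*, *Abcb1b*, *Abcc1*, *Abcc2*, *Abcc3*, *Abcc4* and *Abcg2*, the exchanger *Slc47a1*, and the organic anion transporting polypeptides *Slco1a1* and *Slco4c1*. The members were named by symbol, and all 10 were found among the 23276 gene symbols of the deposited table, with 29 of its 54721 transcripts. RNA came from whole kidneys of 6 mice, at postnatal day 22 by the sample labels and slightly younger by the study's text. Of these, 3 carried KspCre with *Pkd1* F/RC (SKO, single knockout) and 3 carried KspCre, *Pkd1* F/RC and miR17∼92 F/F (DKO, double knockout). All 6 therefore shared a floxed *Pkd1* allele, the hypomorphic RC allele and a Cre recombinase driven by the kidney-specific cadherin promoter, which is active in tubule cells rather than in the whole organ.

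The table gives for each transcript an average abundance over the compared libraries in log2 CPM (read counts scaled to the library size), which was converted to CPM and is given here as the mean CPM. Values of single kidneys are not in it. The remaining columns are the authors' own test of DKO against SKO and were not used, so no difference between the genotypes is given for any transporter, and the deletion itself was not checked in single samples. Every level is thus the authors' mean over cystic kidneys of both genotypes, with no spread between mice and with an unknown depth. In whole-kidney RNA a low level from few cells cannot be told apart from a low level in every cell.

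Proximal tubule cells clear organic solutes from blood to urine in a pair of steps. Uptake carriers in the basolateral membrane, mainly of the SLC22 family, load the cell, and pumps or exchangers in the brush border release the solute into the lumen. ABC pumps spend ATP for this, whereas the exchanger encoded by *Slc47a1* trades an organic cation for a proton. Other pumps of the ABCC family sit in the basolateral membrane and return conjugates to the blood.

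The most abundant of the group were *Slc47a1* and *Abcg2*, while the P-glycoprotein genes and both OATP genes were the lowest. When each gene was represented by its transcript of highest mean CPM, 9 of the 10 reached 1 CPM, compared with 55.9% of all gene symbols. The median of all 10 was 23.7 CPM, and that of the 12571 genes with a RefSeq mRNA at or above 1 CPM was 13.0 CPM. Of the 10 transporters, 7 lay above the latter median. Unlike the genes they were set against, the 10 were not filtered by level, here or per kb, so *Slco1a1* at 0.0407 CPM was included. The RefSeq mRNAs of the 10 were 2639 to 8027 bases long. Per kilobase of the RefSeq mRNA, the median of the 10 was 4.23 CPM per kb and that of 12499 expressed genes was 4.06 CPM per kb, with 5 transporters above it. Of those above the median by CPM only, *Abcc1* was below it after division by length, whereas *Slco4c1* was above it only by an assembled transcript. From the highest to the lowest level per kb, the order was *Slc47a1*, *Abcg2*, *Abcc2*, *Abcc4*, *Abcc3*, *Abcc1*, *Abcb1b*, *Slco4c1*, *Abcb1a* and *Slco1a1*.

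**Figure D1:**
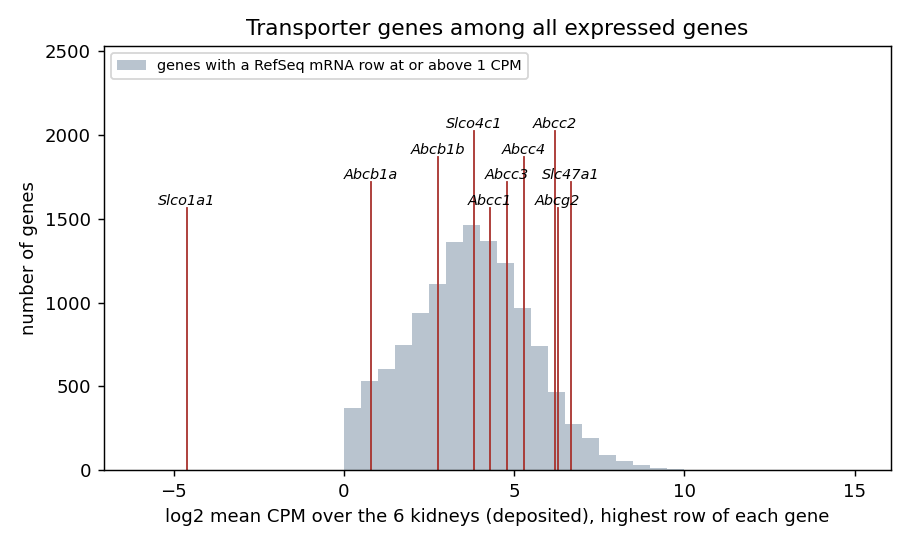
The histogram shows the number of genes (vertical axis) by log2 mean CPM over the 6 kidneys (horizontal axis) for the genes with a RefSeq mRNA at or above 1 CPM, and each red line marks the highest transcript of a transporter gene. *Slco1a1* stands at -4.62, to the left of all bars, and *Slc47a1* at 6.67 is the rightmost line.

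*Slc47a1* encodes MATE1, the brush border exchanger that passes metformin, creatinine and other organic cations into urine. It was the most abundant of the 10. Its RefSeq mRNA had a mean of 82.6 CPM, or 31.3 CPM per kb, which was above 93.3% of expressed genes per kb. The gene (chr11:61343401-61378345, minus strand) was also the one with most transcripts in the table, 7 in all, of which 6 were assembled from the reads. The assembled transcripts ranged from 17.4 CPM to 102 CPM, a log2 difference of 2.55, and 3 of them were above the RefSeq mRNA. The related MATE gene *Slc47a2* had a mean of 0.0496 CPM, near the lowest level in the table.

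*Abcg2* encodes BCRP, the pump for urate and many drugs in the brush border, and works as a dimer of half-transporters. At 77.8 CPM and 13.6 CPM per kb its RefSeq mRNA was second of the 10, and 83.5% of expressed genes lay below it per kb. Its assembled transcript had 41.4 CPM. The gene lies on the plus strand at chr6:58584523-58695676, and its RefSeq mRNA has 16 exons.

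Among the ABCC pumps of the brush border, *Abcc2* (MRP2, which exports glutathione and glucuronide conjugates) and *Abcc4* (MRP4, which exports cyclic nucleotides, prostaglandins and nucleotide drugs) had nearly the same level per kb. The RefSeq mRNA of *Abcc2* (chr19:43782192-43840740, plus strand) had 57.4 CPM or 7.16 CPM per kb. That of *Abcc4* (chr14:118482692-118706219, minus strand) had 39.0 CPM or 6.83 CPM per kb, so that *Abcc2* was 1.05-fold above *Abcc4*. With no spread between mice, this order is not resolved. The 4 transcripts of *Abcc4* covered only 38.2 CPM to 39.0 CPM. Those of *Abcc2* ranged from 5.13 to 6.21 in log2 CPM, and 2 of its 3 assembled transcripts were above the RefSeq mRNA.

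Per kb, the basolateral pumps *Abcc3* and *Abcc1* were lower than *Abcc2* and *Abcc4* but higher than the P-glycoprotein genes *Abcb1b* and *Abcb1a*. *Abcc4* was 1.23-fold above *Abcc3*, and with no spread between mice this order is not resolved either. *Abcc3* (MRP3, a carrier of bile acids and glucuronides; chr11:94343295-94392997, minus strand) had 27.8 CPM or 5.55 CPM per kb. *Abcc1* (MRP1, which exports glutathione conjugates and leukotriene C4; chr16:14361558-14475737, plus strand) had 19.7 CPM or 2.90 CPM per kb. *Abcc3* was thus 1.91-fold above *Abcc1* per kb. Transcripts of each gene were close together, from 19.6 CPM to 19.7 CPM for the 3 of *Abcc1* and from 23.5 CPM to 27.8 CPM for the 4 of *Abcc3*. An assembled transcript and the RefSeq mRNA of *Abcc1* carried the same value, with log2 levels equal within 1e-06. Transcripts of a gene can share reads, so the levels given here are those of single transcripts and not sums.

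**Figure D2:**
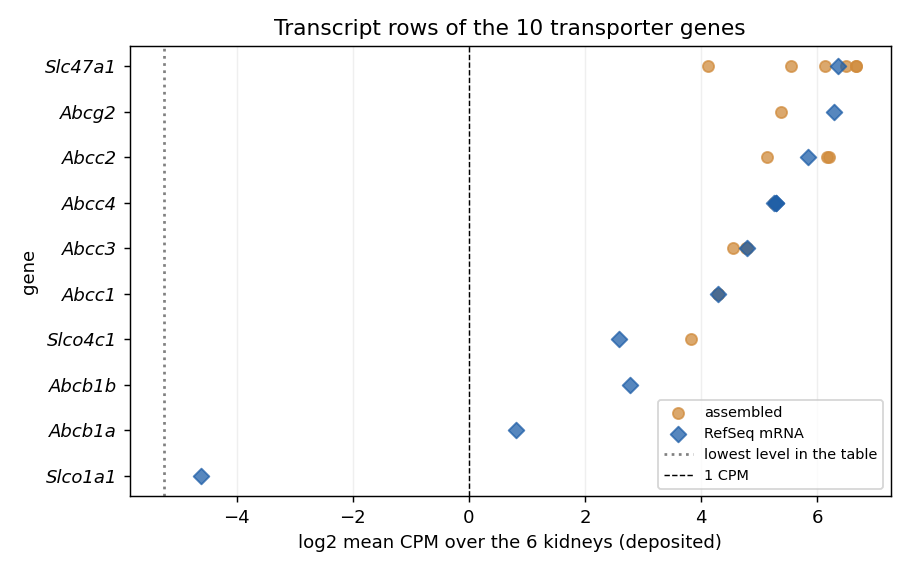
Each point is a transcript of the gene named on the vertical axis, placed by its log2 mean CPM over the 6 kidneys (horizontal axis), with RefSeq mRNAs as blue diamonds and assembled transcripts as orange circles. The transcripts of *Slc47a1*, *Abcc2* and *Slco4c1* are spread over more than 1 log2 unit, those of *Abcc1* lie at 4.30 and those of *Abcc4* between 5.26 and 5.29, and *Slco1a1* sits beside the lowest level in the table.

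P-glycoprotein, the pump that extrudes hydrophobic drugs such as digoxin, is encoded in the mouse by a pair of neighbouring genes. *Abcb1a* (chr5:8660077-8748575) and *Abcb1b* (chr5:8798147-8866315) lie on the plus strand 49.6 kb apart, and both mRNAs have 28 exons and a coding sequence of 3831 bases. *Abcb1b* had 6.83 CPM and *Abcb1a* 1.75 CPM, a ratio of 3.90. Per kb the levels were 1.59 CPM and 0.350 CPM, and the ratio was 4.53. Per kb, 22.4% of expressed genes lay below *Abcb1b* and 2.05% below *Abcb1a*. No transcript of either gene was assembled from the reads.

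The levels of this pair carry an uncertainty that the other pumps do not share, because their coding sequences were identical at 88.1% of 3822 aligned bases. Of 4947 windows of 51 bases (the read length) in the *Abcb1a* mRNA, 755 also occur in a transcript of *Abcb1b*, and 18.4% occur in a transcript of some other gene. For *Abcb1b*, 19.3% of windows are shared. The same share was 0% for *Abcc1*, *Abcc3*, *Abcc4*, *Abcg2*, *Slc47a1* and *Slco4c1*, 0.301% for *Abcc2* and 2.51% for *Slco1a1*. Reads that fit several places have a low mapping quality, and alignments of quality under 10 had been discarded by the authors. The part of shared windows in either level or in the ratio was not tested.

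The sequences below show why only parts of the pair can be told apart. They are from GENCODE transcripts on GRCm38, 5′ to 3′ in lower case, and capitals mark bases that differ between the genes. The first is the beginning of the longest identical run, which covers 338 coding bases of exons 13 and 14, and it reads the same in *Abcb1a* (chr5:8702387-8702488) and *Abcb1b* (chr5:8824707-8824808). The others are the 51 coding bases without gaps that differ most, with 21 differences, in exon 16 of *Abcb1a* (chr5:8714931-8714981) and of *Abcb1b* (chr5:8827370-8827420).
Both genes: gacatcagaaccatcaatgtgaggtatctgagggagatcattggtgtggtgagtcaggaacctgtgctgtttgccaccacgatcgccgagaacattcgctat
*Abcb1a*: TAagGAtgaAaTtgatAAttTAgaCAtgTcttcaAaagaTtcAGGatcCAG
*Abcb1b*: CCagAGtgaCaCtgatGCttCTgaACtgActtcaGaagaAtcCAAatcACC

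**Figure D3:**
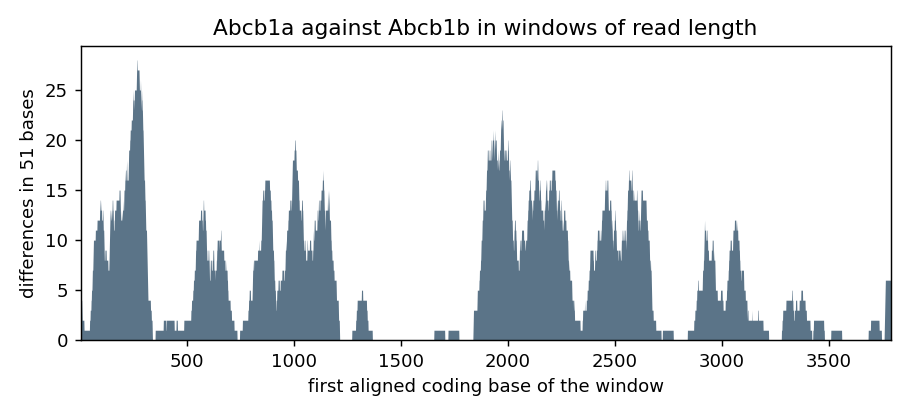
The vertical axis gives the number of differences between *Abcb1a* and *Abcb1b* in each window of 51 aligned coding bases, and the horizontal axis the first base of the window. Of 3790 windows, 755 (19.9%) have 0 differences and 43.3% have 2 or fewer, and these lie in separate stretches between peaks that reach 28, a count that includes alignment gaps.

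Antisense or uncertain genes overlap the pair as well. Exons of Gm42686 cover 4.84% of the *Abcb1a* mRNA on the opposite strand, and those of the antisense gene Gm5106 cover 2.42% of the *Abcb1b* mRNA. The libraries were stranded, but whether reads were counted by strand is not given in the sources used here. The other 8 transporters share no exonic base with another annotated gene.

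The OATP genes were at the low end. *Slco4c1* encodes the basolateral carrier of digoxin and thyroid hormone that feeds the proximal tubule cell. Its RefSeq mRNA (chr1:96816270-96872171, minus strand) had a log2 mean CPM of 2.58, or 1.22 CPM per kb, whereas its assembled transcript had 3.82 on the log2 scale (14.2 CPM), 2.36-fold more, the largest such gap of the 10. The place of *Slco4c1* in the order depended on this choice, as it lay below *Abcb1b* with the RefSeq mRNA and above it with the assembled transcript. The assembled transcript has no length here, so its CPM was divided by the length of the RefSeq mRNA. Whether a difference in length accounts for the gap was not tested.

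*Slco1a1*, a carrier of steroid conjugates known mainly from liver and from kidneys of adult males, was close to the lowest level of the table. Its mean was 0.0407 CPM, and the lowest level, shared by 4617 transcripts (8.44%), was 0.0263 CPM. The mean of the authors' tool includes a small prior count, which keeps values above 0. With the lowest level subtracted, 0.0144 CPM was left for *Slco1a1*. Of its windows, 82 also occur in a transcript of *Slco1a4*. The gene lies on the minus strand at chr6:141907282-141946962.

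Other genes linked to organic solute transport were examined for the levels that surround these transporters. All 10 genes listed under organic ion uptake reached 1 CPM. The list held SLC22 genes together with *Slc51a* and *Slc51b*, and was not divided by membrane or by direction of transport. It is therefore not a measure of the basolateral uptake step alone. They had a median of 18.5 CPM per kb, and ranged from 2.71 for *Slc22a7* to 47.8 for *Slc22a12*, the urate exchanger. Of 8 other ABC exporters, 5 reached 1 CPM, with a median of 0.686 CPM per kb. Among these *Abcc5*, a cyclic nucleotide pump, was highest at 3.98 CPM per kb and *Abcc12* lowest at 0.00808. Of 13 other MATE and OATP genes, 5 reached 1 CPM. Here *Slco1a6* had 20.0 CPM per kb, against 0.0120 for *Slco1a1* of the same subfamily, and *Slco6b1*, *Slco6c1* and *Slco6d1* were at the lowest level of the table.

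The scaffold *Pdzk1*, which anchors transporters in the brush border, had 160.6 CPM per kb, and the lowest of the 4 scaffold genes, *Rdx*, had 26.1. Of 9 transcription regulators of drug transporter genes, 8 reached 1 CPM. *Hnf4a*, which maintains proximal tubule identity, was highest at 44.1 CPM per kb, while the xenobiotic receptors *Nr1i2* and *Nr1i3* had 1.45 and 0.342.

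**Figure D4:**
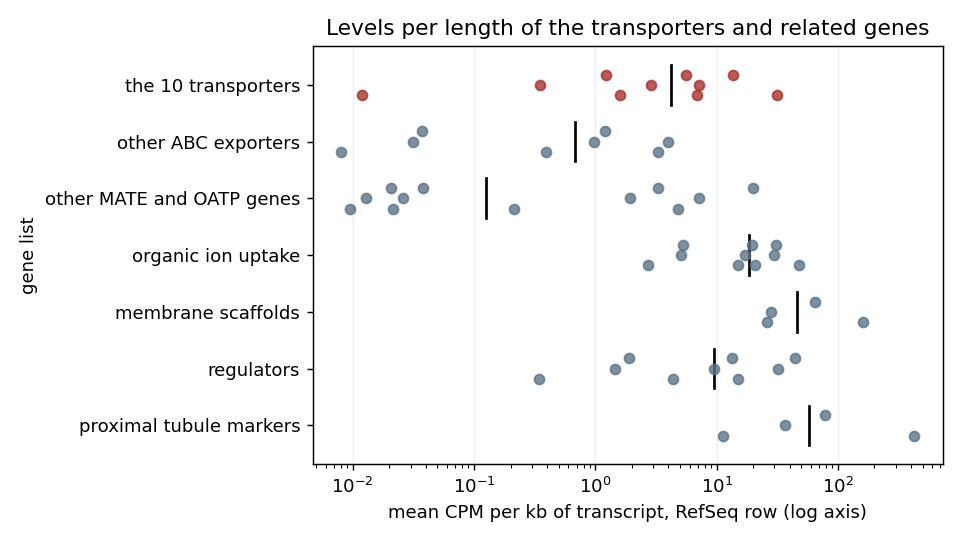
Each point is a gene placed by its mean CPM per kb of transcript (RefSeq mRNA, log axis), in the lists named on the vertical axis, and black bars mark list medians. The 10 transporters (red, median 4.23) extend from 0.0120 to 31.3. Their median lies below those of the genes listed under organic ion uptake (18.5) and the proximal tubule markers (57.8). *Slc47a1* is above every gene of the uptake list but *Slc22a12*. That list was not divided by membrane or by direction of transport.

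Markers of the tubule segments were present. The 4 proximal tubule markers had a median of 57.8 CPM per kb, with *Slc34a1* at 423.1 and *Cubn* at 11.4. *Umod* of the thick ascending limb had 374.4 and *Slc12a3* of the distal convoluted tubule 43.0. The collecting duct markers *Aqp2* and *Atp6v1g3* had 52.2 and 21.8. Other cells were represented as well, with medians of 16.1 for endothelium, 12.3 for fibroblasts and 6.43 for podocytes, and these types can also express ABC pumps. The source cell of each transporter was not tested. Of the immune markers *Ptprc* had 1.62 CPM per kb and *Cd3e* 0.110, and the red blood cell genes *Hba-a1* and *Alas2* had 104.2 and 10.6. Liver markers had a median of 3.96 CPM per kb and adrenal cortex markers 0.116.

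Because DKO kidneys carry floxed miR17∼92, the 3′ untranslated regions (3′-UTRs) of the transporters were searched for matches to the seeds (bases 2 to 8) of its miRNAs. The mature sequences, from RefSeq on GRCm38.p6, are shown with the seed in capitals because the seed defines what was searched for. miR-17-5p and miR-20a-5p share a seed, as do miR-19a-3p and miR-19b-3p.
mmu-miR-17-5p: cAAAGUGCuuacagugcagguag
mmu-miR-20a-5p: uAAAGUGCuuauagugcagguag
mmu-miR-18a-5p: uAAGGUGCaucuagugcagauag
mmu-miR-19a-3p: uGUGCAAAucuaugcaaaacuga
mmu-miR-19b-3p: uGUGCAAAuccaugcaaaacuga
mmu-miR-92a-3p: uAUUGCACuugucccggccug

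*Abcg2* and *Slc47a1* held a match to all 7 bases of a seed, and the other 8 transporters held none. The share of all genes with a match to any of the seeds was not computed, so this count has no background beside it. Other kinds of site were not searched for. The *Abcg2* 3′-UTR of 3286 bases has a match to the miR-17-5p and miR-20a-5p seed (GCACTTT) at positions 45 to 51, counted from the base after the stop codon (chr6:58692435-58692441). The *Slc47a1* 3′-UTR of 901 bases has a match to the miR-19 seed (TTTGCAC) at positions 372 to 378 (chr11:61343924-61343930) and to the miR-92a-3p seed (GTGCAAT) at 708 to 714 (chr11:61343588-61343594). No member matched the miR-18a-5p seed (GCACCTT). The sites are shown on the transcript strand with the match in capitals.
*Abcg2*, miR-17-5p and miR-20a-5p: attaaatatggGCACTTTgattaccatat
*Slc47a1*, miR-19a-3p and miR-19b-3p: ggaatgttgatTTTGCACccctgggattg
*Slc47a1*, miR-92a-3p: aacaccatataGTGCAATgtgggggagac

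None of the 3 sites is followed by the A that would lengthen the match to 8 bases. Such 7-base matches are common. Over 18875 genes, 11.1% of 3′-UTRs held GCACTTT, 7.24% GCACCTT, 10.1% TTTGCAC and 5.99% GTGCAAT. Among 1683 genes with a 3′-UTR of similar length to that of *Abcg2* (2630 to 4106 bases), 28.8% held the *Abcg2* match. Among 2564 genes near *Slc47a1* in length (721 to 1126 bases), 8.46% held its miR-19 match and 4.56% its miR-92a-3p match. The search covered the transcript strand of the 3′-UTR in the annotation, which ranged from 365 bases for *Abcb1b* to the 3286 of *Abcg2*. A match is not a measured target site, and no binding was measured.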

How the data were processed

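The submitters' processing notes name TopHat2 2.0.12, Cufflinks, featureCounts of Subread 1.4.6 and edgeR 3.2.4, with mm10. The authors mapped trimmed 51 bp single-end reads of stranded libraries with the iGenomes annotation and discarded alignments of mapping quality under 10. The deposited log2 values are an average abundance in log2 CPM per transcript over the compared libraries, as the authors' edgeR run wrote them. They were converted to a linear scale and called mean CPM, and whether the authors' tool averaged before or after taking logs is not given in the sources used here. The table's other columns hold the authors' fold change, statistic, p and adjusted p, and were not used. A test of DKO against SKO on counts had been planned but could not be run without counts per sample.

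A gene was represented by its transcript of highest mean CPM, and per kb by its highest RefSeq mRNA over the length of the matching GENCODE M21 transcript (GRCm38, the assembly of mm10). Of 20470 genes with a RefSeq mRNA, 20167 matched. Assembled transcripts have no length of their own here. The *Abcb1a* and *Abcb1b* coding sequences were aligned with Biopython 1.88 (match 2, mismatch -2, gap opening -8, gap extension -1). Other steps used Python 3.11.15, numpy 2.4.6 and pandas 2.3.3, and the scripts' functions were tested on simulated data. Named genes were all members and, from other lists, mainly the highest and lowest. Marker genes and a few related genes were named besides. The members and lists were chosen with earlier results of these data known. Library depths are unknown here, and no interval was computed.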

Additional observations from a re-analysis of the deposited data

How the results depend on the processing

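All 5 ways of setting a gene's level gave 9 of 10 transporters at or above 1 CPM. This agreement is not a test of the count, because none of these ways could have changed it. *Slco1a1* has 1 transcript, at 0.0407 CPM, so neither a sum nor the choice of transcript could raise it. The next lowest, *Abcb1a*, has 1 transcript at 1.75 CPM, and every transcript of the others was higher. Subtracting the lowest level of 0.0263 CPM could not bring any of these below 1 CPM. The order per kb was the same with the longest annotated transcript and without division by length, and 8 of 10 places were kept when the CPM of the highest transcript, divided by the length of the RefSeq mRNA, was used, a choice made after seeing the data. The ratio of *Abcb1b* to *Abcb1a* was 3.90, 3.95 with the lowest level of the table subtracted and 4.53 per kb, the last also added after seeing the data. The median share of expressed genes below a transporter was 68.4%. It was 82.8% over all gene symbols and 50.0% per kb, the latter added after seeing the data. The mean CPM of a transporter moved by over 5% for 3 of 10 genes with RefSeq mRNAs (*Abcc2*, *Slc47a1* and *Slco4c1*), for 7 with a sum over transcripts, and for *Slco1a1* alone with the lowest level subtracted (0.0144 CPM). A sum with each transcript divided by its own length was not run because assembled transcripts have no length here, and DESeq2, other filters and leaving out replicates were not run because the table used here holds no value for a single sample. No paired analysis was possible because the columns carry no samples. Values with no spread between mice limit every order given.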
